A study of Mus musculus with 12 samples.

Results

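The comparison described here is the difference between 2 cytokine responses in MC38CEA cells. MC38CEA is a mouse colon adenocarcinoma line that expresses human carcinoembryonic antigen. The response of a gene is the log2 fold change of stimulated over resting cells, and the difference is the response of cells with the *Adam17*-targeting shRNA A17.2 minus the response of cells with a control shRNA. It was computed for every gene that had enough reads, 15649 of 43271 listed, and the genes that passed the test were then separated by whether their level differed between A17.2 and control cells at rest, under cytokines, or in both. The 4 groups were A17.2 cells stimulated for 6 h with human recombinant IL1β and mouse recombinant IFNγ (10 ng/ml each), control cells stimulated in the same way, A17.2 cells left resting and control cells left resting, with 3 libraries of poly(A) RNA in each. All cells carried a lentiviral pLKO.1 vector, in which a U6 promoter drives the shRNA, and were puromycin-selected pools and not clones. The notes deposited with the libraries give the control vector as SHC016, which they call cytotoxic and prone to loss of its cassette, whereas the study's methods give SHC002, so the identity of the control is uncertain. Untransduced cells were not analysed here, so effects of A17.2 and effects of the control vector cannot be told apart.

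IFNγ binds a receptor on the cell surface whose kinases JAK1 and JAK2 pass the signal to short DNA elements called GAS. One early target is *Irf1*, which encodes a transcription factor that binds a second element, the ISRE, and so carries the signal on to a second set of genes. ISRE sites also respond to type I interferons, which sustain a low basal expression of many antiviral genes in resting cells. IL1β acts through MyD88 and IRAK kinases on NF-κB and AP-1. The genes induced by both cytokines include GTPases that attack intracellular pathogens, the parts of the antigen presentation machinery, chemokines and the immune checkpoint ligand PD-L1.

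Libraries held 16592831 to 35861103 counts. A check of the targeted transcript was made first. *Adam17* had 52.3, 42.9 and 39.5 CPM in stimulated A17.2 cells, against 129, 103 and 95.5 CPM in stimulated control cells. It had 30.8, 29.9 and 27.7 CPM in resting A17.2 cells, against 76.1, 68.4 and 76.4 CPM in resting control cells, so that it was below the control level in both conditions. Its response did not differ detectably between the pools (difference 0.05, standard error 0.13). The replicate number entered the fit as a block, since same-numbered libraries shared their deviations (correlations 0.31 to 0.85). Some libraries of different numbers did so too (up to 0.46). The labels call the libraries biological replicates without saying that they were separate cultures, so p-values measure the spread between these libraries only. Markers of epithelium (11 genes, *Epcam*, *Cdh1* and keratins among them) summed to 0.130 to 0.544 CPM in any library, in spite of the labelled origin. Fibroblast and endothelial markers (10 genes) summed to 514 to 1184 CPM. Of these, *Col3a1* alone had 344 to 1008 CPM, and *Col1a2* ranged from 5.51 to 441 CPM between libraries. The endothelial genes *Pecam1*, *Cdh5*, *Kdr* and *Vwf* reached at most 0.250, 0.353, 0.104 and 0.399 CPM. The 11 leukocyte markers in the table summed to 4.90 to 8.98 CPM in stimulated A17.2 cells, 4.79 to 9.47 CPM in stimulated control cells, 4.86 to 7.74 CPM in resting A17.2 cells and 3.75 to 7.98 CPM in resting control cells.

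The cytokine response was larger in A17.2 cells for 64 genes (0.409% of those tested) and smaller for 1 gene, *Nab2* (0.00639%), at an adjusted p under 0.05. Larger and smaller refer to the signed log2 response, so a fall counts as smaller than no change. Nearly all of the larger responses began from a lower resting level. In bulk RNA, fewer cells with a transcript and less of it in each cell cannot be told apart. Of the 64 genes, 36 were lower in A17.2 cells at rest and did not pass the test under cytokines, 18 were lower both at rest and under cytokines, 6 were lower at rest and higher under cytokines, and 4 were higher under cytokines only. The resting log2 fold change was the larger of the 2 in size for 57 genes, which are called resting-side genes below, and the stimulated one for 7, the stimulated-side genes. Among the 57 the differences of responses had a median of 1.45 (log2), with a median level in A17.2 cells of 0.896-fold the control level under cytokines and 0.304-fold at rest. Their median response was 14.6-fold in A17.2 cells, against 5.18-fold in control cells. In 62 of the 65 genes the cytokines raised the transcript in both pools.

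The difference of responses equals the stimulated minus the resting log2 fold change between the pools, so these values share their libraries and are descriptions of 1 result from 2 sides. As background, 17.9% of the genes tested were higher and 19.1% lower in A17.2 than in control cells under cytokines, and 15.9% were higher and 17.5% lower at rest. The cytokines raised 10.6% and lowered 6.94% of genes in A17.2 cells, and raised 10.4% and lowered 8.88% in control cells. Of all genes tested, 3704 differed between the pools in the same direction at rest and under cytokines, 2077 under cytokines only, 1511 at rest only and 10 in opposite directions, and 6 of those 10 are among the 64. Under cytokines all 3 A17.2 libraries lay below all 3 control libraries for 19 of the 65 genes (12.9% of all genes tested) and above them for 4 (12.1%). At rest they lay below for 54 (11.5%) and above for none (10.4%). All 64 genes had a larger response in 3 of 3 replicate numbers, and 63 of the 65 had a lower resting level in 3 of 3. The genes were chosen by a test on these same libraries, so such agreement was largely set by the choice and is not replication.

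**Figure D1:**
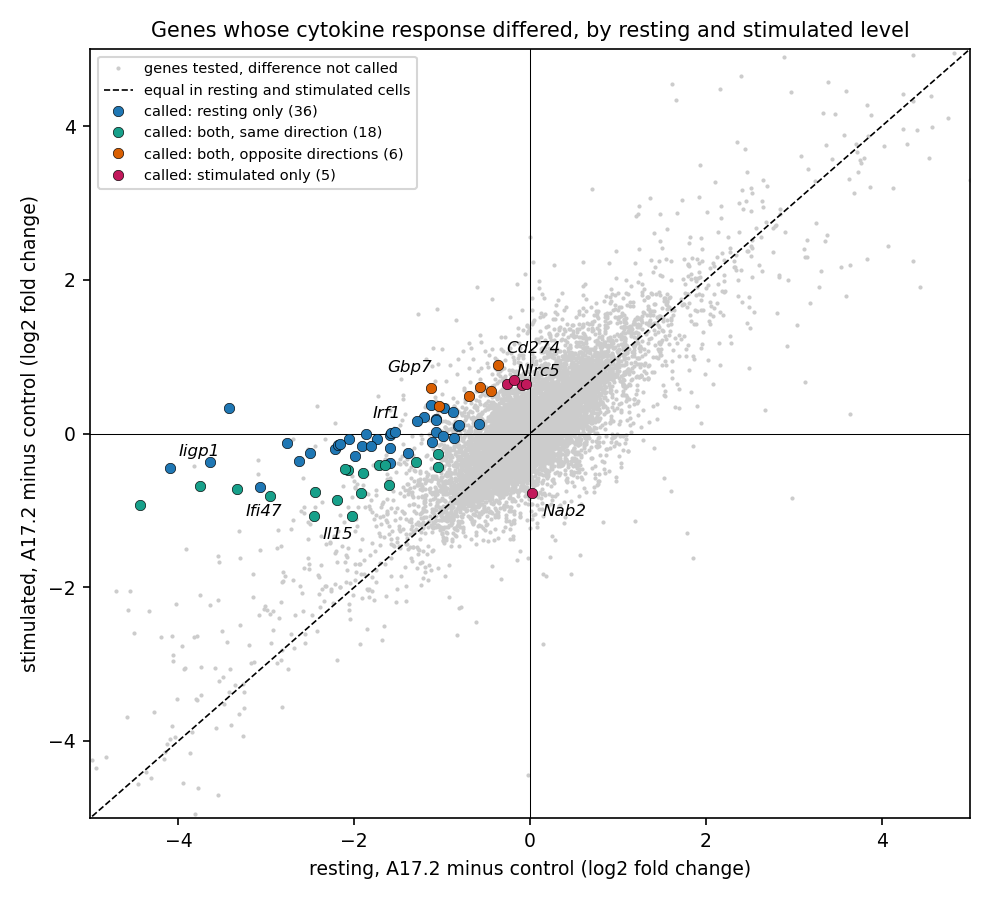
Each point is a gene tested, with the log2 fold change of A17.2 over control cells at rest on the horizontal axis and under cytokines on the vertical axis; colours mark the 65 genes whose cytokine response differed, by class, and the dashed line marks equal values on both axes. The coloured points lie above the line except *Nab2*, and 57 of them extend to the left at small vertical values, while 52 genes tested lie outside the drawn limits of 5.

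These counts depended on the block and on which libraries were fitted. Without the block no gene passed (lowest adjusted p 0.15 by edgeR; 209 genes had an unadjusted p under 0.05, 58 of the 65 among them), and without replicate 2 of every group none passed either (lowest adjusted p 0.055), while 876 genes had an unadjusted p under 0.05, all 65 among them. Leaving out 1 library gave 155 larger responses without resting A17.2 replicate 3, 39 without resting A17.2 replicate 1 or 2, 27 without stimulated A17.2 replicate 1 or 2, 42 and 32 without resting control replicates 3 and 2, and 29 and 26 without stimulated control replicates 2 and 3. DESeq2 with the block called 122 larger and 13 smaller responses, all 65 genes among them.

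The 36 genes that were lower at rest and did not pass the test under cytokines include 9 of the 11 called genes in the list of IFNγ-inducible GTPases, while *Ifi47* and *Gbp7* were in other classes. The list holds immunity-related GTPases, which damage the vacuoles of intracellular pathogens, and guanylate-binding proteins, a related GTPase family. *Iigp1*, an immunity-related GTPase, had 339, 299 and 243 CPM in stimulated A17.2 cells, against 476, 392 and 331 CPM in stimulated control cells. At rest it had 0.343, 0.995 and 2.47 CPM in resting A17.2 cells, against 21.97, 21.7 and 20.2 CPM in resting control cells. The stimulated groups overlapped while the resting groups stood far apart, and the difference of responses was 3.66 (standard error 0.41, adjusted p = 0.00069 by edgeR). *Igtp*, another member of this family, had 1323, 1057 and 986 CPM in stimulated A17.2 cells, against 1476, 1171 and 1109.7 CPM in stimulated control cells. Its resting values were 17.5, 12.7 and 21.98 CPM in resting A17.2 cells, against 68.7, 73.1 and 54.9 CPM in resting control cells. Its stimulated log2 fold change was -0.16 (adjusted p = 0.47) beside a resting one of -1.91, and the difference was 1.76 (standard error 0.23).

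*Irgm2*, a regulatory member of the same GTPase family, had 285, 330.3 and 382 CPM in stimulated A17.2 cells, against 315, 317 and 353 CPM in stimulated control cells, in one range. The resting values did not overlap, at 10.9, 8.92 and 18.3 CPM in resting A17.2 cells, against 32.8, 42.3 and 36.4 CPM in resting control cells. The T-cell-specific GTPase gene *Tgtp1* had 191, 168 and 109 CPM in stimulated A17.2 cells, against 240.3, 180.1 and 99.7 CPM in stimulated control cells, again in one range. Without cytokines it had 0.843, 0.720 and 1.41 CPM in resting A17.2 cells, against 6.90, 8.17 and 5.28 CPM in resting control cells, all lower in A17.2 cells. The difference of responses was 1.59 (standard error 0.22) for *Irgm2* and 2.65 (standard error 0.33) for *Tgtp1*. *Gbp6*, a guanylate-binding protein gene, had 296, 243 and 173 CPM in stimulated A17.2 cells, against 409.7, 234 and 176 CPM in stimulated control cells, and these libraries interleaved. Its resting libraries stood apart, at 2.47, 1.47 and 2.54 CPM in resting A17.2 cells, against 13.3, 8.74 and 7.63 CPM in resting control cells. The difference for *Gbp6* was 2.03 (standard error 0.25). *Tgtp2*, *Irgm1*, *Gbp3* and *Gbp5* belonged to the same class, with differences of 2.25, 1.25, 1.65 and 1.70, and the calls of *Irgm1*, *Gbp3* and *Gbp5* were lost in 6, 8 and 8 of the 12 fits that each left out 1 library (adjusted p up to 0.20).

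*Irf1*, the transcription factor gene introduced above, had 1456, 1312 and 1336 CPM in stimulated A17.2 cells, against 1673, 1187 and 1312 CPM in stimulated control cells, and these groups overlapped. Before stimulation they stood apart, at 57.1, 48.4 and 66.5 CPM in resting A17.2 cells, against 197, 184 and 138 CPM in resting control cells. Its difference of responses was 1.58 (standard error 0.20, adjusted p = 0.0015 by edgeR), made up of -0.01 under cytokines and -1.59 at rest. *Cxcl10*, a chemokine that attracts T cells, had 9356, 7609 and 7499 CPM in stimulated A17.2 cells, against 8418, 8491 and 8708 CPM in stimulated control cells. In resting cells the levels were 233, 201 and 337 CPM in resting A17.2 cells, against 828, 970.2 and 748 CPM in resting control cells, without overlap. The stimulated log2 fold change was -0.07, and the difference 1.67 (standard error 0.24, adjusted p = 0.0049). Among the other members of the class were *Psmb9* and *Tap1*, a catalytic subunit of the immunoproteasome and a subunit of the peptide transporter for MHC class I, with differences of 1.41 and 1.17. Without 1 library in turn these calls were lost in 3 and 8 of the 12 fits (adjusted p up to 0.065 and 0.20).

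*Ifi203*, a member of the PYHIN family of DNA-binding proteins, had 269, 149 and 154 CPM in stimulated A17.2 cells, against 268, 176 and 203 CPM in stimulated control cells, with overlap. The resting values, 9.30, 4.73 and 10.7 CPM in resting A17.2 cells, against 51.3, 30.005 and 33.6 CPM in resting control cells, did not overlap. *Tmem140*, which encodes a transmembrane protein, had 131, 56.3 and 70.5 CPM in stimulated A17.2 cells, against 102, 54.6 and 60.9 CPM in stimulated control cells, higher in A17.2 cells in 3 of 3 numbers but not past the test (adjusted p = 0.18). At rest all 3 A17.2 libraries were lower, with 4.09, 2.64 and 3.95 CPM in resting A17.2 cells, against 11.3, 7.23 and 6.48 CPM in resting control cells. The differences were 2.01 (standard error 0.22) and 1.43 (standard error 0.20). *Parp14*, an ADP-ribosyltransferase gene, had 269, 276 and 390.2 CPM in stimulated A17.2 cells, against 297, 270.0 and 344 CPM in stimulated control cells, with no separation of the pools. Resting levels were 16.04, 12.6 and 30.9 CPM in resting A17.2 cells, against 43.6, 57.6 and 63.7 CPM in resting control cells, lower in every A17.2 library. *Zbp1*, a sensor of Z-form nucleic acids that can start necroptosis, had 561, 451 and 363 CPM in stimulated A17.2 cells, against 975, 659 and 604 CPM in stimulated control cells. In the absence of cytokines there were 7.52, 9.33 and 20.4 CPM in resting A17.2 cells, against 86.7, 101 and 120.4 CPM in resting control cells. The stimulated groups did not overlap either, although the test gave an adjusted p of 0.052, so *Zbp1* stood at the border of the class. Its difference was 2.38, and the call was lost in 5 of the 12 fits without 1 library (adjusted p up to 0.068).

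**Figure D2:**
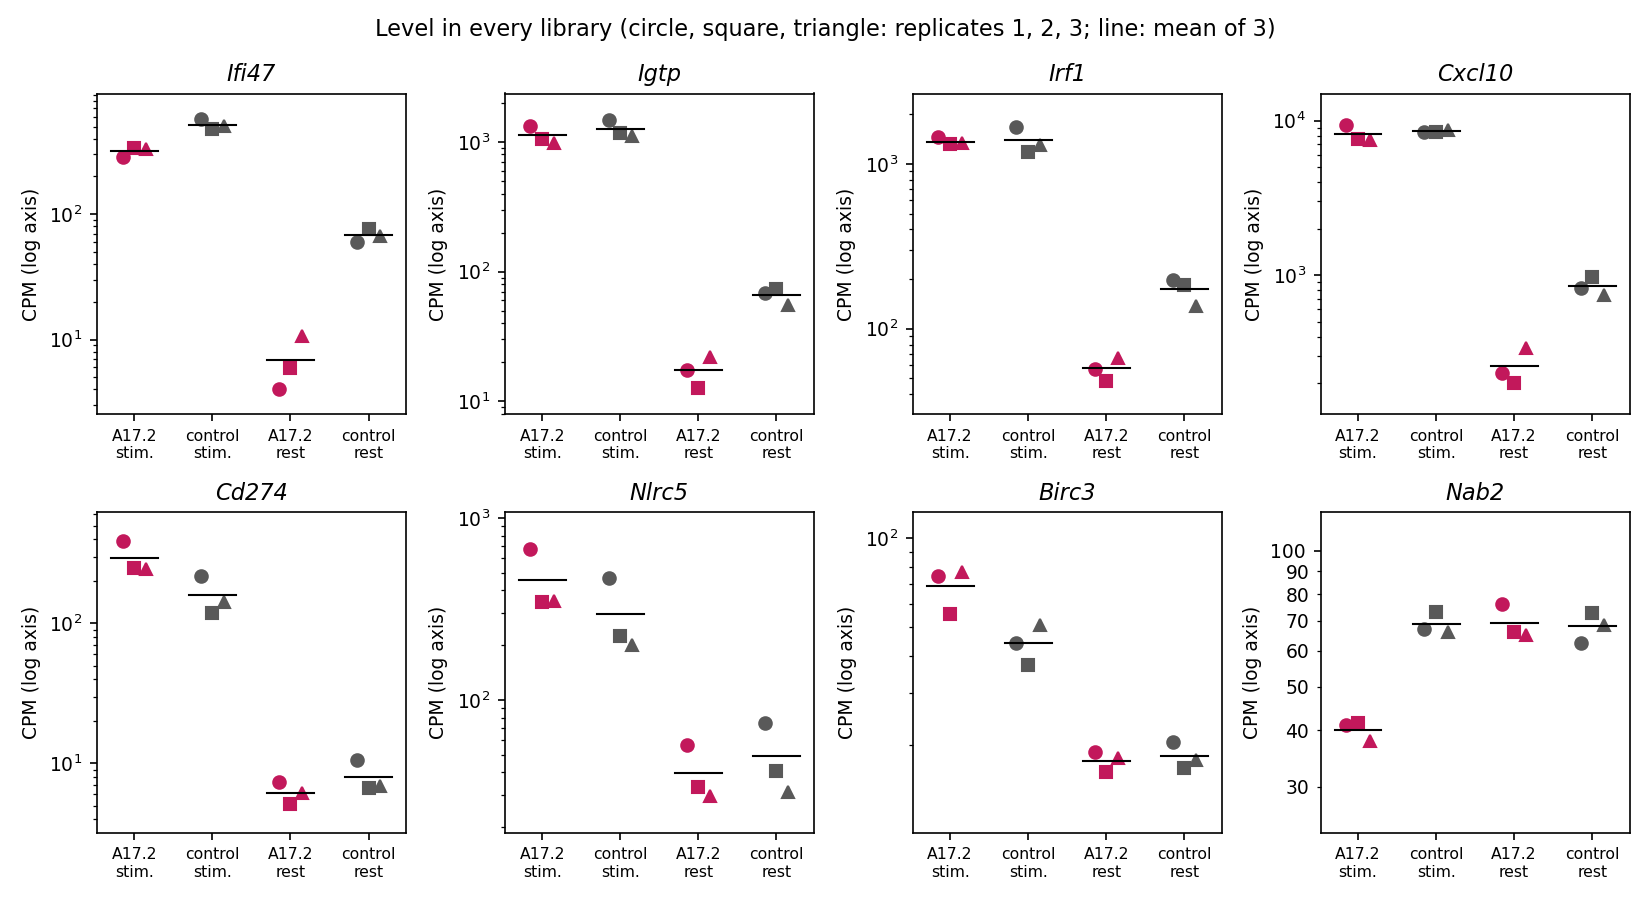
CPM on a log axis in each of the 12 libraries for 8 genes, with stimulated A17.2, stimulated control, resting A17.2 and resting control cells from left to right, symbols for replicate numbers and lines for means of 3. For *Igtp*, *Irf1* and *Cxcl10* the pools are apart at rest and overlap under cytokines, and for *Ifi47* they are apart in both conditions, by less under cytokines. For *Cd274*, *Nlrc5* and *Birc3* the A17.2 mean is higher under cytokines, and for *Nab2* the 3 stimulated A17.2 libraries alone are low.

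Promoters of the called genes are shown because most of these genes had a lower resting level in A17.2 cells, while their levels under cytokines differed in direction. RefSeq promoters (GRCm38.p6, 250 bases before to 50 after the start) were matched for 44 of the 57 resting-side genes, 5 of the 7 stimulated-side genes and *Nab2*. The GAS letters TTCNNNGAA, searched on both strands, stood in 12 of the 44 (27.3%), against 9.55% of the 27025 genes in the table. The ISRE core, GAAA and GAAA separated by any 2 bases, stood in 26 of the 44 (59.1%), against 3.99% in the table, and the NF-κB motif in 7 (15.9%), against 9.55%. None of the 5 stimulated-side promoters held the GAS or ISRE letters and 1 held the NF-κB motif. For comparison, the shares of GAS, ISRE core and NF-κB letters were 15.6%, 14.5% and 19.4% in 366 induced genes with a promoter here. The cytokines raised these genes at least 2-fold in control cells, and their difference of responses did not pass the test. Such a set can still hold genes whose response differed. A match is a description of letters, and these shares were not tested. Some of the 44 promoters belong to neighbouring genes of the same family with the same letters, such as *Trim5*, *Trim12a* and *Trim12c*. The matches are therefore not all separate instances. The windows differ in which start site the table holds.

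A GAS followed after 2 bases by an ISRE core on the same strand was found in 5 of the 27025 promoters, and all 5 belong to called GTPase genes of chromosome 11, *Igtp*, *Irgm2*, *Tgtp1*, *Tgtp2* and *Gm12185*. These are close paralogs whose promoters share sequence, so they are not separate instances. Stretches of 4 of them, and of *Irf1*, *Cxcl10* and the stimulated-side gene *Casp4*, are given 5′ to 3′ with the matched letters in capitals. In the GTPase genes the capitals are first the GAS and then the ISRE core, in *Irf1* the GAS and then an NF-κB motif, in *Cxcl10* the ISRE core and then NF-κB motifs, and in *Casp4* NF-κB motifs only, some of which overlap. The stretches lie at chr11:58214877-58214946, plus strand (*Irgm2*), chr11:58199456-58199555, plus strand (*Igtp*), chr11:48992287-48992356, minus strand (*Tgtp1*), chr11:49064253-49064322, minus strand (*Tgtp2*), chr11:53769904-53770013, plus strand (*Irf1*), chr5:92348975-92349114, minus strand (*Cxcl10*) and chr9:5308729-5308828, plus strand (*Casp4*).
Irgm2: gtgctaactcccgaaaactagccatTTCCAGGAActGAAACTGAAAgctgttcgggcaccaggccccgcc
Igtp: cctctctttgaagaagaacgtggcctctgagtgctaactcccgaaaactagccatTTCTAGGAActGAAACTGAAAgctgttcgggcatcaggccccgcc
Tgtp1: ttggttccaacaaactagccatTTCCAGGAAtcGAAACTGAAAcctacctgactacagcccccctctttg
Tgtp2: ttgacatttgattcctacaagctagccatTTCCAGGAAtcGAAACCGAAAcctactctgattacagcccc
Irf1: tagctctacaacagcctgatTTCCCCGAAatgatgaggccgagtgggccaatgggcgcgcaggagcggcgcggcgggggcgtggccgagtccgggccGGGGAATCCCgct
Cxcl10: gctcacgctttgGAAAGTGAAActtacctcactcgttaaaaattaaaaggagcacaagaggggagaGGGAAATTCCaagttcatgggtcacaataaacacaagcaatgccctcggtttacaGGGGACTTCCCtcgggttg
Casp4: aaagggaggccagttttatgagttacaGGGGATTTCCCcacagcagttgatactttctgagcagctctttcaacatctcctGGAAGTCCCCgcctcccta

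In 18 genes the level in A17.2 cells was lower at rest and also, by less, under cytokines. The IFNγ-induced GTPase gene *Ifi47* had 284, 339 and 328 CPM in stimulated A17.2 cells, against 574, 480.2 and 503 CPM in stimulated control cells. Unstimulated libraries gave 4.06, 5.97 and 10.8 CPM in resting A17.2 cells, against 60.1, 76.6 and 67.6 CPM in resting control cells. Neither pair of groups overlapped, and the log2 fold change was -0.73 under cytokines and -3.33 at rest, with a difference of 2.61 (standard error 0.28, adjusted p = 0.00069 by edgeR). The class held the PYHIN genes *Mndal*, *Ifi204*, *Ifi205* and *Ifi211*, of which *Ifi204* and *Ifi205* are also listed with inflammasome genes. *Ifi204*, which senses DNA, had 135, 85.4 and 85.3 CPM in stimulated A17.2 cells, against 222, 157 and 137 CPM in stimulated control cells. At rest it had 7.68, 6.52 and 11.02 CPM in resting A17.2 cells, against 49.3, 43.8 and 44.2 CPM in resting control cells. For *Ifi211* the stimulated values were 156, 137 and 123 CPM in stimulated A17.2 cells, against 213, 187 and 171 CPM in stimulated control cells. Resting cells held 14.02, 11.1 and 17.6 CPM in resting A17.2 cells, against 59.2, 64.6 and 59.8 CPM in resting control cells of this transcript. In both genes all 3 A17.2 libraries lay below all 3 control libraries in both conditions. Differences were 1.68 for *Ifi204*, 1.65 for *Ifi211*, 1.59 for *Mndal* and 1.39 for *Ifi205*.

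*Mndal* had 165, 116 and 115 CPM in stimulated A17.2 cells, against 236, 154 and 164 CPM in stimulated control cells. Its resting values were 10.2, 6.07 and 9.86 CPM in resting A17.2 cells, against 49.2, 32.2 and 29.5 CPM in resting control cells. The highest stimulated A17.2 library reached into the control range, and the resting groups stood apart. *Ifi205* had 86.9, 73.2 and 78.6 CPM in stimulated A17.2 cells, against 128, 106 and 105 CPM in stimulated control cells. At rest *Ifi205* had 3.90, 2.47 and 6.35 CPM in resting A17.2 cells, against 15.1, 14.03 and 17.6 CPM in resting control cells. Neither pair of groups overlapped for *Ifi205*. *Il15*, a cytokine that sustains natural killer and memory T cells, had 13.2, 10.7 and 13.7 CPM in stimulated A17.2 cells, against 30.03, 21.8 and 27.9 CPM in stimulated control cells. Without cytokines it had 0.874, 0.617 and 1.09 CPM in resting A17.2 cells, against 4.49, 5.15 and 4.56 CPM in resting control cells. The level in A17.2 cells was thus below that of control cells in both conditions, and the fold response was larger, by 1.38 on the log2 scale (standard error 0.24). The calls of *Ifi205* and *Il15* were lost in 5 and 7 of the 12 such fits (adjusted p up to 0.080 and 0.076).

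*Tnfrsf14*, the receptor HVEM of the TNF receptor superfamily, had 6.24, 9.11 and 9.72 CPM in stimulated A17.2 cells, against 7.80, 11.5 and 14.03 CPM in stimulated control cells, with overlap. Its resting values, 0.843, 1.10 and 1.34 CPM in resting A17.2 cells, against 3.20, 3.21 and 4.22 CPM in resting control cells, did not overlap. *Slfn9*, a schlafen family gene, had 49.7, 79.3 and 88.3 CPM in stimulated A17.2 cells, against 128, 171 and 146 CPM in stimulated control cells, with no overlap and a log2 fold change of -1.07. Resting levels were 16.7, 22.8 and 31.2 CPM in resting A17.2 cells, against 67.04, 103 and 118 CPM in resting control cells. The differences were 1.31 and 0.95, and the calls were lost in 8 and 6 of the 12 such fits (adjusted p up to 0.082 and 0.077). *Psmb8*, a catalytic subunit of the immunoproteasome, had 429.8, 394 and 316 CPM in stimulated A17.2 cells, against 940.4, 619 and 539.7 CPM in stimulated control cells, lower in every A17.2 library. In the absence of cytokines there were 51.4, 60.1 and 77.6 CPM in resting A17.2 cells, against 304, 294 and 280.0 CPM in resting control cells, and the difference was 1.33, a call lost in 7 of the 12 fits without 1 library (adjusted p up to 0.13). Further members were *Sp100* and *Sp110*, which encode nuclear body proteins, *Parp9* and *Parp10*, which encode ADP-ribosyltransferase family proteins, *Trim30a*, *Apol10b* and *Il18rap*, an accessory chain of the IL18 receptor. Their differences ranged from 0.61 for *Il18rap* to 2.14 for *Apol10b*. Each of these calls was lost in 7 to 9 of the 12 such fits (adjusted p up to 0.12).

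In 6 genes the level in A17.2 cells was lower at rest and higher under cytokines. *Cd274* (ENSMUSG00000016496.7, chromosome 19, 29367455 to 29388095 in GRCm38), which encodes PD-L1, a ligand that restrains T cells, had 390.3, 251 and 245 CPM in stimulated A17.2 cells, against 218, 119 and 143 CPM in stimulated control cells. Unstimulated libraries gave 7.30, 5.11 and 6.13 CPM in resting A17.2 cells, against 10.6, 6.62 and 6.90 CPM in resting control cells. The stimulated groups did not overlap and the resting groups did, although each A17.2 library was below the control library of its number. The log2 fold change was 0.90 under cytokines (adjusted p = 5.30e-06 by edgeR) and -0.37 at rest (adjusted p = 0.021), and the difference was 1.26 (standard error 0.14, adjusted p = 0.00069).

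*Casp4*, the caspase of the pathway that senses lipopolysaccharide in the cytosol, had 170.0, 103 and 99.8 CPM in stimulated A17.2 cells, against 118, 66.8 and 70.3 CPM in stimulated control cells. At rest it had 19.4, 14.7 and 12.8 CPM in resting A17.2 cells, against 33.7, 17.7 and 14.7 CPM in resting control cells. Replicate 1 was high in every group and both pairs of groups overlapped, but within each number A17.2 was higher under cytokines and lower at rest. *Gbp7* had 361, 204 and 238 CPM in stimulated A17.2 cells, against 163, 164 and 193 CPM in stimulated control cells, without overlap. The resting values were 12.2, 4.66 and 11.2 CPM in resting A17.2 cells, against 17.3, 17 and 25.1 CPM in resting control cells, again without overlap and with the opposite order. *Trim12a*, a TRIM family gene, had 118, 49.2 and 54.6 CPM in stimulated A17.2 cells, against 81.1, 43.9 and 42.9 CPM in stimulated control cells. Its resting values were 12.4, 5.97 and 7.98 CPM in resting A17.2 cells, against 23.3, 17.9 and 12.2 CPM in resting control cells, and the order was reversed in 3 of 3 numbers. Differences were 0.99 for *Casp4*, 1.72 for *Gbp7* and 1.40 for *Trim12a*. The call of *Gbp7* was lost in 5 of the 12 fits without 1 library (adjusted p up to 0.086).

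*Il15ra*, the receptor chain that presents IL15, had 154, 79.4 and 73.5 CPM in stimulated A17.2 cells, against 95.1, 56.7 and 61.5 CPM in stimulated control cells. Without cytokines it had 8.65, 8.57 and 8.52 CPM in resting A17.2 cells, against 17.6, 15.3 and 9.80 CPM in resting control cells, lower in every A17.2 library. *Il15* and *Il15ra* thus both had a larger response, of 1.38 and 1.19, and their stimulated log2 fold changes had opposite signs, at -1.08 and 0.49. *Cfap69*, a gene of cilia and flagella, had 11.2, 4.55 and 2.87 CPM in stimulated A17.2 cells, against 7.80, 3.18 and 1.59 CPM in stimulated control cells. Resting levels were 4.99, 2.30 and 1.16 CPM in resting A17.2 cells, against 7.38, 3.31 and 1.83 CPM in resting control cells. In control cells *Cfap69* did not respond detectably (log2 fold change -0.03), and its level differed more between numbers than between pools. The calls of *Il15ra* and *Cfap69* were lost in 9 and 11 of the 12 such fits (adjusted p up to 0.18 and 0.14).

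There were 4 genes higher in A17.2 cells under cytokines that did not pass the test at rest. *Nlrc5* (ENSMUSG00000074151.13), the transactivator of MHC class I genes, had 675, 346 and 349.8 CPM in stimulated A17.2 cells, against 470.2, 225 and 201 CPM in stimulated control cells. In the absence of cytokines there were 56.6, 33.3 and 29.8 CPM in resting A17.2 cells, against 74.999, 40.6 and 31.3 CPM in resting control cells. Within each number the A17.2 library was higher under cytokines and lower at rest, and the difference was 0.91 (standard error 0.14, adjusted p = 0.0065 by edgeR). *Birc3*, which encodes the ubiquitin ligase cIAP2 of the NF-κB pathway, had 74.4, 55.6 and 76.7 CPM in stimulated A17.2 cells, against 44.1, 37.2 and 51.1 CPM in stimulated control cells, without overlap. Unstimulated libraries gave 18.9, 16.2 and 18.1 CPM in resting A17.2 cells, against 20.5, 16.7 and 17.8 CPM in resting control cells, within one range. The difference was 0.69 (standard error 0.14). *Trim56*, a ubiquitin ligase of antiviral signalling, had 91.7, 80.8 and 96.9 CPM in stimulated A17.2 cells, against 68.2, 49.2 and 49.4 CPM in stimulated control cells, also without overlap. At rest it had 30.1, 25.2 and 33.7 CPM in resting A17.2 cells, against 32.4, 33.9 and 34.2 CPM in resting control cells. Its difference was 0.88 (standard error 0.16). The fourth was the clone-named gene *RP23-5K7.4*, with 37.2, 72.5 and 50.7 CPM in stimulated A17.2 cells, against 27.1, 44.7 and 30.9 CPM in stimulated control cells. Its resting values were 34.02, 73.7 and 49.3 CPM in resting A17.2 cells, against 35.9, 78.2 and 52.9 CPM in resting control cells. The cytokines lowered *RP23-5K7.4* in control cells (log2 fold change -0.67) and had no detectable effect in A17.2 cells (0.05), so it counted as a larger response through a smaller fall. The calls of *Birc3*, *Trim56* and *RP23-5K7.4* were lost in 11, 9 and 8 of the 12 such fits (adjusted p up to 0.19, 0.11 and 0.11).

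*Nab2* (ENSMUSG00000025402.12, chromosome 10, 127660918 to 127668568), a corepressor of the EGR transcription factors, was the only gene with a smaller response. It had 41.02, 41.5 and 37.97 CPM in stimulated A17.2 cells, against 66.97, 73.3 and 66.2 CPM in stimulated control cells. Without cytokines it had 76.1, 66.2 and 64.95 CPM in resting A17.2 cells, against 62.5, 72.9 and 68.6 CPM in resting control cells. The 3 stimulated A17.2 libraries lay below the other 9, and the difference was -0.80 (standard error 0.13, adjusted p = 0.0081). The cytokines lowered *Nab2* in A17.2 cells (log2 fold change -0.78, adjusted p = 9.70e-06) and did not change it detectably in control cells (0.02). Exons of *Nab2* overlap those of *Nemp1* and *Stat6* on the other strand, and the strand setting of the counting is not given in the sources used here. The difference of responses of *Stat6* was -0.18 (adjusted p = 0.66). The next 5 genes by p among those with a smaller response and a mean log2 CPM of at least 1 did not pass, with differences of -0.78 for *Phlda3* (adjusted p = 0.058), -0.63 for *Csrp1* (0.071), -0.48 for *Vps37b* (0.099), -1.09 for *Lipg* (0.11) and -0.60 for *Rgs12* (0.12).

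A fold response divides by the resting level, so the increase in CPM, stimulated minus resting, was set beside it. Among the 57 resting-side genes the ratio of the increase in A17.2 cells to that in control cells had a median of 1.02 (range 0.535 to 2.08). The increase was larger in A17.2 cells in 3 of 3 numbers for 19 of them, in 2 for 11, in 1 for 13 and in none for 14. For *Cxcl10* the increase was 7898 ± 1068 CPM in A17.2 cells and 7690.2 ± 236 CPM in control cells (SD, n = 3 each). *Igtp* gained 1104 ± 178 CPM in A17.2 cells and 1186 ± 192 CPM in control cells. For *Il15* the values were 11.7 ± 1.39 CPM in A17.2 cells and 21.8 ± 4.61 CPM in control cells, so that its fold response was larger and its increase smaller in A17.2 cells. All 7 stimulated-side genes had a larger stimulated minus resting value in A17.2 cells in 3 of 3 numbers. These genes were chosen by their levels in the same libraries, so this count was largely set by the choice. In control cells *RP23-5K7.4* fell (mean -21.4 CPM, against 1.14 CPM in A17.2 cells) and *Cfap69* hardly changed (0.021 CPM, against 3.40 CPM). *Cd274* gained 289 ± 81.4 CPM in A17.2 cells and 152 ± 49.3 CPM in control cells, and *Nlrc5* gained 417 ± 174 CPM in A17.2 cells and 249 ± 126 CPM in control cells.

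**Figure D3:**
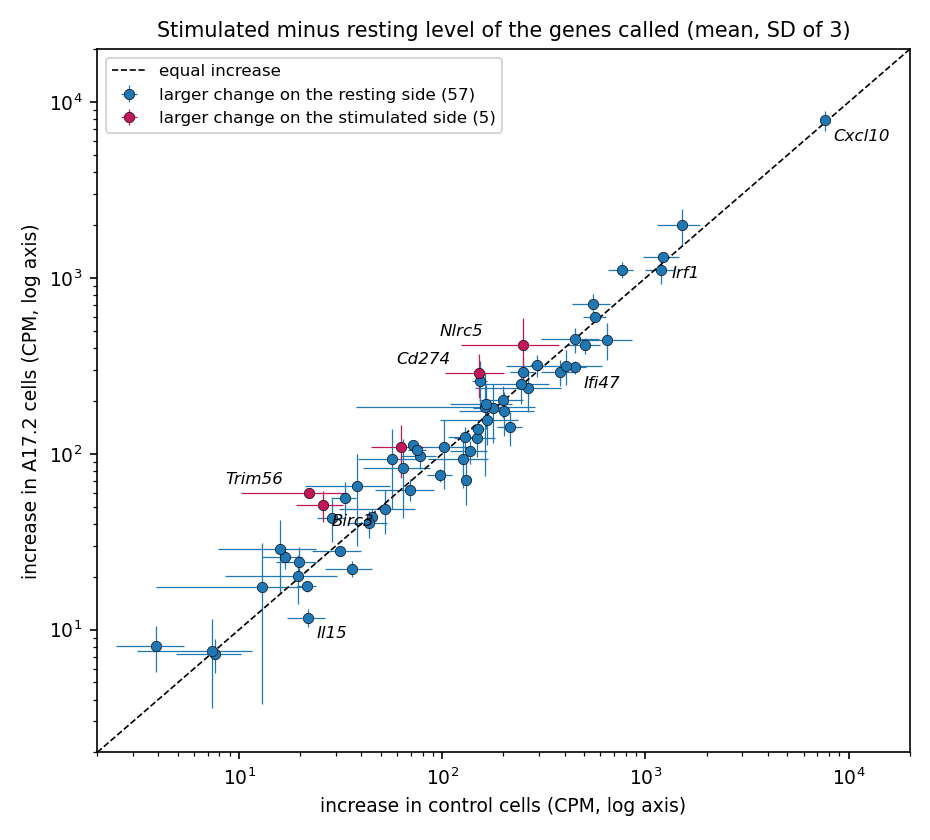
Stimulated minus resting CPM in A17.2 cells (vertical) and control cells (horizontal) on log axes, as the mean and SD of 3 numbers, for the 62 called genes with a mean increase over 1 CPM in both pools. Blue points, the 57 resting-side genes, lie on both sides of the dashed line of equal increase, with a median ratio of 1.02, and the 5 stimulated-side points lie above it.

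The same separation was made over every gene that the cytokines raised in control cells. At least 2-fold induction with an adjusted p under 0.05 was seen for 613 genes, and 56 of them (9.14%) responded more in A17.2 cells and none responded less, against 0.409% and 0.00639% of all genes tested. Of these 613 genes, 244 were lower in A17.2 cells at rest, and 54 of the 244 (22.1%) had a larger response. The median difference of responses of the 244 was 0.78, with a median level in A17.2 against control cells of -0.58 under cytokines and -1.48 at rest. Of the 301 induced genes whose resting level did not pass the test in either direction, 2 (0.664%) had a larger response, and the median difference was -0.01. Induction shares the control libraries with the difference of responses, and the resting comparison shares the resting libraries of both pools. The difference is the stimulated minus the resting log2 fold change, so choosing genes by the resting one shifts their differences in advance. These counts are therefore descriptions. The 301 genes can hold small differences that 3 libraries a group did not show.

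Gene lists were chosen with earlier results of these data known, and they are described by counts and medians. The median difference of responses over all genes tested was -0.01. Of all genes tested, 0.409% had a larger response. In A17.2 cells 19.1% were lower and 17.9% higher than in control cells under cytokines, and 17.5% were lower at rest. Of 17 IFNγ-inducible GTPase genes, 11 had a larger response and none a smaller one, with a median of 1.72. All 17 were induced in both pools, in A17.2 cells 2 were lower and 1 was higher under cytokines, and 14 were lower at rest. Of 50 antiviral interferon effectors 11 had a larger response (median 0.93), among them *Parp14*, *Zbp1*, *Xaf1*, a proapoptotic partner of XIAP, and *Oasl2*, of the oligoadenylate synthetase family. The calls of *Xaf1* and *Oasl2* were lost in 6 and 7 of the 12 fits without 1 library (adjusted p up to 0.10 and 0.11). In this list 29 were lower in A17.2 cells under cytokines and 46 at rest.

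Of 20 genes of MHC class I antigen presentation, *Nlrc5*, *Psmb9*, *Psmb8* and *Tap1* had a larger response (median 0.79 over the list), against 0.409% of all genes tested. The class I heavy chain gene *H2-K1* had a difference of 0.35 and *B2m*, the light chain, of 0.45, and neither passed. None of 9 genes of MHC class II presentation passed (median 0.24, between -0.04 and 1.14 without 1 library). The master regulator *Ciita* had 2.59, 3.82 and 3.25 CPM in stimulated A17.2 cells, against 2.86, 2.75 and 2.06 CPM in stimulated control cells. At rest it was near 0, with 0, 0.0343 and 0.0363 CPM in resting A17.2 cells, against 0.0264, 0.0473 and 0.0426 CPM in resting control cells. Of 27 proinflammatory mediators *Cxcl10* and *Il15* passed (median 0.46), of 19 genes of cell death and inflammasomes *Casp4*, *Ifi204* and *Ifi205* (median 0.42), and of 6 checkpoint ligands and IDO genes *Cd274* and *Tnfrsf14* (median 0.37). That last list holds *Ido1* and not *Ido2*, which was called with a difference of 1.99. None of 14 complement and acute phase genes passed (median 0.40, and 0.75 with at least 50 counts in 3 libraries).

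Upstream of these targets, *Irf1* alone passed of 23 interferon ligands, receptors and signalling genes (median 0.05), and 0.409% of all genes tested had a larger response. *Stat2* and *Irf9*, which encode transcription factors that act at the ISRE, had differences of 1.06 (adjusted p = 0.10) and 0.64 (adjusted p = 0.13). Of 31 genes of IL1 receptor and NF-κB signalling *Birc3* alone passed (median 0.08). The inhibitor gene *Nfkbia* had 167, 161 and 183 CPM in stimulated A17.2 cells, against 254, 204 and 214 CPM in stimulated control cells. In the absence of cytokines there were 34.99, 36.2 and 37.3 CPM in resting A17.2 cells, against 82.8, 77.1 and 48.9 CPM in resting control cells, and the difference of 0.54 did not pass (adjusted p = 0.41).

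None of 30 AP-1 and immediate early genes passed in either direction, but 4 of the 30 alone had a positive difference, the median was -0.33, and 6 had an unadjusted p under 0.05 by edgeR, all smaller in A17.2 cells (20.0% of the list, against 3.77% of all genes tested). *Jund* had 58.9, 55.03 and 53.4 CPM in stimulated A17.2 cells, against 60.1, 45.6 and 45.4 CPM in stimulated control cells. Unstimulated libraries gave 79.4, 57.3 and 62.3 CPM in resting A17.2 cells, against 48.1, 37.2 and 43.04 CPM in resting control cells, higher in A17.2 cells in 3 of 3 numbers, and its difference was -0.47 (adjusted p = 0.20). *Ier3* had a resting log2 fold change of 1.12 and a difference of -0.67 (adjusted p = 0.37). No gene passed in the lists of cell cycle (29 tested), cholesterol and fatty acid synthesis (23), glycolysis and hypoxia (22), unfolded protein and integrated stress response (17), ADAM proteases and partners (13) and RNA interference (12), whose medians lay between -0.18 and 0.03. With unadjusted p under 0.05 these 6 lists held 3 larger and 7 smaller responses (8.62% of 116 genes, against 9.59% of all genes tested).

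**Figure D4:**
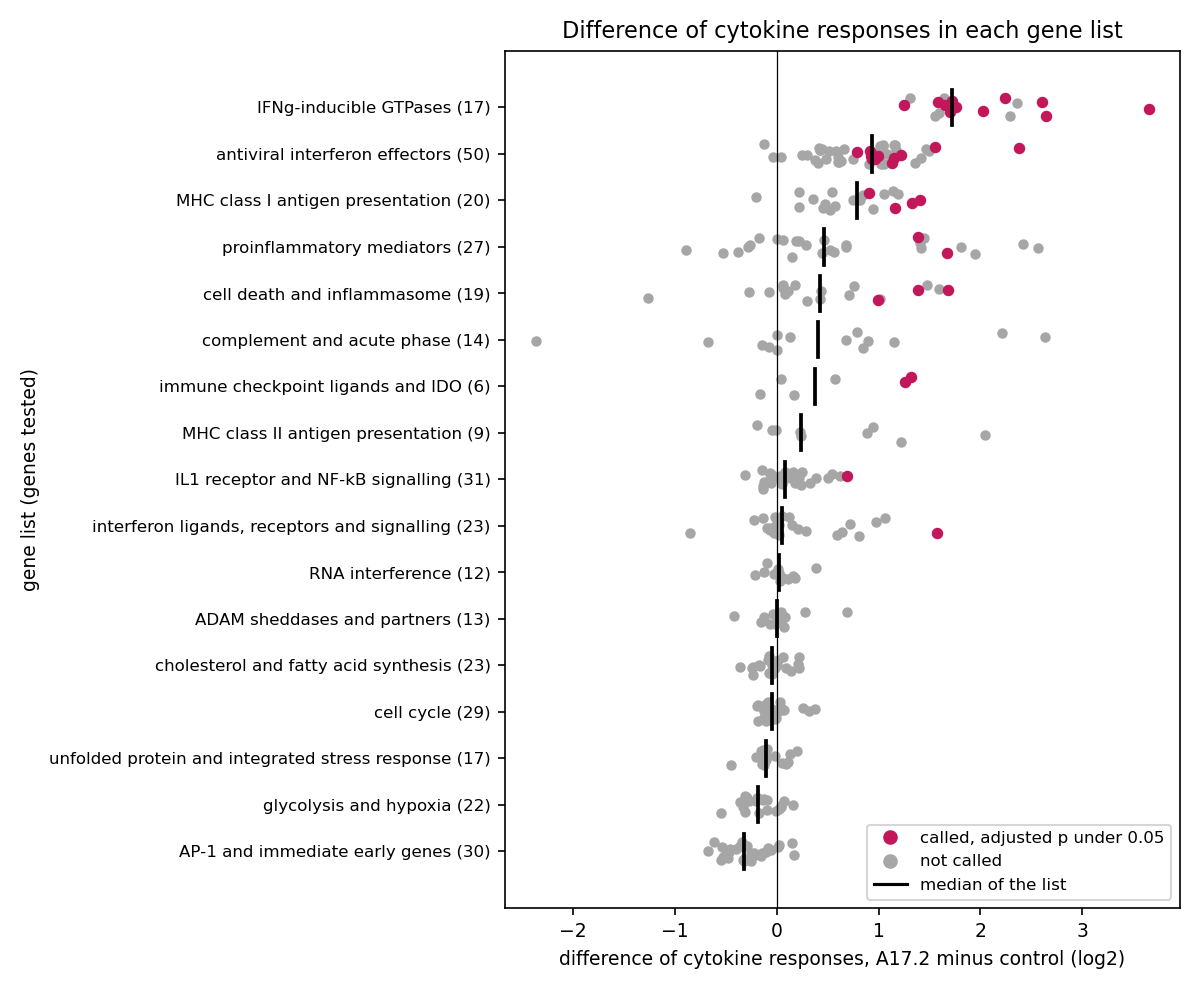
Difference of cytokine responses, A17.2 minus control, on the log2 scale for each gene tested in 17 lists, ordered by list median (black bar), with called genes in red and the number tested in parentheses. The GTPase list is highest, at a median of 1.72, and the AP-1 and immediate early list is lowest, at -0.33.

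Among the genes that the study followed, *Nos2*, which encodes the inducible nitric oxide synthase, had 218, 273 and 259 CPM in stimulated A17.2 cells, against 766, 915 and 1047 CPM in stimulated control cells, without overlap. At rest it was close to 0, with 0.0312, 0.0343 and 0.145 CPM in resting A17.2 cells, against 0.106, 0.0945 and 0.213 CPM in resting control cells. The stimulated log2 fold change was -1.86 (standard error 0.10), and the difference of responses could not be settled from so few resting reads (-0.89, standard error 0.71, adjusted p = 0.72). *Ccl2*, a monocyte chemokine, missed the threshold with a difference of 2.42 (standard error 0.50, adjusted p = 0.0501). It had 837, 386 and 429 CPM in stimulated A17.2 cells, against 1753, 1628 and 1317 CPM in stimulated control cells. At rest it had 3.59, 7.10 and 10.3 CPM in resting A17.2 cells, against 75.7, 163 and 85.1 CPM in resting control cells, and both pairs of groups stood apart. *Ccl7*, a related chemokine, had differences between the pools of -2.23 under cytokines and -3.64 at rest, and a difference of responses of 1.41 (adjusted p = 0.13). For each of *Nos2*, *Ccl2* and *Ccl7* the increase in CPM was larger in A17.2 cells in 0 of 3 numbers. Mean increases in A17.2 against control cells were 250 against 909 CPM, 544 against 1458 CPM and 28.7 against 130 CPM.

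*Oas1b* and *Ifit1*, antiviral effectors, had differences of 1.01 (adjusted p = 0.080) and 1.08 (adjusted p = 0.12). *Ifit1* had 205, 271 and 485 CPM in stimulated A17.2 cells, against 319, 429.7 and 448 CPM in stimulated control cells. Its resting values were 34.2, 32.4 and 69.8 CPM in resting A17.2 cells, against 83.8, 149.9 and 134 CPM in resting control cells, lower in every A17.2 library. *Adam10*, a relative of *Adam17* that A17.2 is not designed against, had a difference of -0.03 (standard error 0.14) and did not differ detectably between the pools under cytokines (-0.12) or at rest (-0.08). The study reported lower ADAM10 expression in MC38CEA cells with A17.2, by RT-qPCR and Western blot. That decrease was not seen in these counts, and the reason was not tested.

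Some of the genes called were neighbours. Of 64 with a position in GENCODE M21 (GRCm38), 37 lay in 10 groups in which the next called gene was within 1 Mb (57.8%, against 6.16% of the tested genes with a position), and 14 of the 64 lay on chromosome 11 (21.9%, against 8.34%). One group on chromosome 11, from 48861968 to 49135387, held *Irgm1*, *Tgtp1*, *Tgtp2*, *Ifi47*, *Olfr56* and 2 predicted genes, and another, from 58187739 to 58222782, held *Igtp*, *Irgm2* and a predicted gene. The PYHIN genes *Ifi204*, *Mndal*, *Ifi211*, *Ifi203* and *Ifi205* lay with a pseudogene between 173747293 and 174031810 of chromosome 1. *Psmb9*, *Tap1* and *Psmb8* lay within 34181987 to 34201454 of chromosome 17. Exons overlap on the same strand for *Ifi47* and *Olfr56*, an olfactory receptor gene, for *Igtp* and *Irgm2* and for *Mndal* and *Ifi203*, and on opposite strands for *Psmb9* and *Tap1* and for *Parp9* and *Dtx3l*. Reads of such pairs, and of near-identical paralogs such as *Tgtp1* and *Tgtp2*, may have been counted for either gene, so the 65 genes are fewer independent measurements than their number.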

How the data were processed

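The 12 libraries held poly(A) RNA, prepared with the Ion Total RNA-Seq Kit. Their deposited values are whole-number read counts for each gene symbol, which the authors left unnormalized. The submitters' processing notes name mm10, and for the aligner, counter, annotation and strand setting nothing is given in the sources used here. The 2 other deposited tables hold the authors' own comparisons (log2 fold changes and p-values) and were not used. The label of stimulated control replicate 1 states that its raw file was corrupted, and its counts were used as deposited. All 12 count columns were matched to samples by title.

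The analysis used edgeR 4.0.16 in R 4.3.3. The table lists 43271 genes, 10997 of them without a read, and filterByExpr kept 15649 with 99.9% of the counts. Tests were quasi-likelihood tests from 1 model fitted to all 12 libraries with TMM scaling (factors 0.924 to 1.14), the replicate number as a block and Benjamini-Hochberg adjustment over all genes tested at 0.05. Standard errors are the size of the log2 fold change over the square root of F. Levels are TMM-scaled CPM, reads in proportion to the library's total. The script was tested on simulated data. Depth was 16592831 to 35861103 counts, and no 2 replicates agreed within sampling noise. The replicate numbers come from the labels. Correlations of deviations from group means ranged between 0.31 and 0.85 for the 18 same-numbered pairs and between -0.75 and 0.46 for the 36 others, and since each same-numbered one exceeded 0.1 the numbers were taken to pair the samples. The common dispersion was 0.0110 with the block and 0.0795 without it.

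The comparison, the gene lists, the classes and the named genes were chosen with earlier results of these data known. Named are the genes called, the 6 genes of lowest p with a smaller response and a mean log2 CPM of at least 1, the genes the study follows and up to 4 genes of lowest p in each list. A gene that this rule names is not reported here. Values in every library were given for 8 genes of lowest p per class, leaving out predicted genes. *Parp14*, *Cxcl10*, *Zbp1* and *Psmb8* were added after their values had been seen. Alternatives were no block, DESeq2 1.42.0, limma 3.58.1 with voom, other scaling and filters, another prior count and leaving out libraries. Gene positions are from GENCODE M21 and promoters from RefSeq.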

Additional observations from a re-analysis of the deposited data

Results flagged for a closer look

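The cytokine response, the same contrast in 2 pools of cells, differed between A17.2 and control cells by the interaction term of the edgeR fit for 64 genes that responded more and for 1 gene that responded less in A17.2 cells. Their differences of responses (log2, A17.2 minus control) are given by gene family. With 3 libraries a group, no group was large enough for a test of single outlying libraries.

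Among the GTPases that IFNγ induces the difference was 3.66 for *Iigp1*, 2.65 for *Tgtp1*, 2.61 for *Ifi47*, 2.25 for *Tgtp2*, 2.03 for *Gbp6*, 1.76 for *Igtp*, 1.72 for *Gbp7*, 1.70 for *Gbp5*, 1.65 for *Gbp3*, 1.59 for *Irgm2* and 1.25 for *Irgm1*. Predicted or clone-named genes reached 3.75 for *BC023105*, 3.50 for *Gm4841*, 3.28 for *Gm4951*, 3.07 for *Gm12250*, 1.45 for *Gm12185*, 1.09 for *9930111J21Rik2* and 0.71 for *RP23-5K7.4*, and some of these lie beside the GTPase genes. *Gm4841* and *BC023105* had so few resting reads in A17.2 cells that their fitted values depend on the prior count.

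For PYHIN family genes and a pseudogene of the family it was 2.02 for *Ifi203-ps*, 2.01 for *Ifi203*, 1.68 for *Ifi204*, 1.65 for *Ifi211*, 1.59 for *Mndal* and 1.39 for *Ifi205*. TRIM family genes showed 1.49 for *Trim5*, 1.40 for *Trim12a*, 1.26 for *Trim12c*, 0.94 for *Trim30a*, 0.92 for *Trim21* and 0.88 for *Trim56*. Genes of ADP-ribosylation showed 1.55 for *Parp14*, 1.00 for *Dtx3l*, 0.93 for *Parp9* and 0.79 for *Parp10*.

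For the genes of antigen presentation the values were 1.41 for *Psmb9*, 1.33 for *Psmb8*, 1.17 for *Tap1* and 0.91 for *Nlrc5*. Cytokines, receptors and the checkpoint ligand gave 1.67 for *Cxcl10*, 1.38 for *Il15*, 1.31 for *Tnfrsf14*, 1.26 for *Cd274*, 1.19 for *Il15ra* and 0.61 for *Il18rap*. Transcription factor and nuclear body genes gave 1.58 for *Irf1*, 1.25 for *Sp110* and 1.15 for *Sp100*, and genes of cell death and its inhibition 2.38 for *Zbp1*, 1.14 for *Xaf1*, 0.99 for *Casp4* and 0.69 for *Birc3*.

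The remaining larger responses were 2.27 for *Olfr56*, 2.14 for *Apol10b*, 1.99 for *Ido2*, 1.86 for *Uba7*, 1.43 for *Tmem140*, 1.31 for *Ddx60*, 1.22 for *Oasl2*, 1.18 for *Cfap69*, 0.96 for *Samd9l*, 0.95 for *Slfn9*, 0.92 for *Rnf213*, 0.81 for *Steap2* and 0.71 for *Mitd1*. *Nab2* had the smaller response, at -0.80.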

How the results depend on the processing

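Without the replicate block, 0 genes had a larger and 0 a smaller response, and 0 lay on either side. The pools then differed in 1072 genes under cytokines and 1006 at rest. The fit with the block is the main one because the numbers were taken to pair the libraries. Some libraries of different numbers were correlated as strongly (up to 0.46) as some of the same number (from 0.31). DESeq2 with the block gave 122 larger and 13 smaller responses (100 on the resting side and 35 on the stimulated side), and no filter on low counts gave 252 and 29 (202 and 79). Smaller responses numbered 3 with library totals only and 2 with voom. The 65 genes kept their sign in every alternative, and all were called again with DESeq2, DESeq2 size factors in edgeR, library totals and no filter, and 64 each with voom and with at least 50 counts in 3 libraries. Leaving out 1 library, or 1 replicate number of every group, gave 0 to 155 larger and 0 to 3 smaller responses, 0 to 136 genes on the resting side and 0 to 21 on the stimulated side, 3732 to 6090 genes different between the pools under cytokines and 3398 to 5344 at rest. Of the 65 calls, 23 were kept without any 1 library and 42 were lost at least once. The causes of these losses in the fits without 1 library were not tested. In these fits the difference of responses turned sign for *Adam17* (-0.060 to 0.11) and *Adam10* (-0.16 to 0.080), both without a call. The median of the MHC class II list moved between -0.04 and 1.14 without 1 library, and that of the complement list was 0.75 with at least 50 counts in 3 libraries. At this depth, the difference of *Nos2*, which was near 0 at rest in both pools, could not be settled.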
